A study of Homo sapiens with 12 samples.

Results

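The oligosaccharyltransferase (OST) complex is the target of NGI-1, and this account follows the transcripts of 10 of its subunits. They are STT3A, STT3B, RPN1, RPN2, DDOST, DAD1, OST4, TMEM258, MAGT1 and OSTC. They were chosen by gene symbol from the 59276 features of an RNA-seq table, and all 10 were found there.

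Total RNA came from MM1S, an established human multiple myeloma cell line, sequenced in 12 libraries. Of these, 3 carry the label day 0. The others are 3 per harvest, at 2, 3 or 5 days of exposure to NGI-1, an inhibitor of N-glycosylation given at 10 μM. GEO's labels carry the NGI-1 tag on the day 0 libraries as well. These libraries are called untreated here, as in the study's text, and their labels name no vehicle. The labels show no untreated culture harvested alongside the later days, so time in culture and NGI-1 cannot be told apart. The labels do not say whether the 3 libraries of a group came from separate cultures, and the p-values below measure only the spread between these libraries.

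N-linked glycosylation attaches a preassembled sugar chain to asparagine residues of proteins that enter the endoplasmic reticulum. The OST complex carries out this transfer, and mammalian cells hold a pair of forms of it. OST-A, built on the catalytic subunit STT3A, sits at the translocon and glycosylates chains as they enter. OST-B, built on STT3B, can act later and reaches sites that OST-A skipped. RPN1, RPN2, DDOST, DAD1, OST4 and TMEM258 belong to both forms. OSTC and KRTCAP2 are found in OST-A, and MAGT1 or its paralog TUSC3 in OST-B. Plasma cells and myeloma cells secrete large amounts of immunoglobulin, a glycoprotein, and depend on this pathway.

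Values are TPM, a length-corrected share of the RNA in a library. They were deposited by the authors as log2(TPM + 1). A lower TPM can mean fewer cells with the transcript, less of it per cell or a larger share held by other transcripts, and bulk RNA does not separate these. Testing was done with limma over 11939 features, those that reached 1 TPM in 3 or more libraries, and the 10 subunits were all among them. A gene is said to have risen or fallen where limma's p-value after Benjamini-Hochberg adjustment fell under 0.05 and the log2 fold change exceeded 0.5 in either direction.

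The make-up of the libraries changed with NGI-1. Ribosomal protein transcripts held 28.1% to 29.2% of the TPM in the untreated libraries and 47.5% to 49.1% at day 5. Over all 11939 features the median change in log2 units was -0.18 on day 2, -0.73 on day 3 and -0.99 on day 5. Mitochondrially encoded transcripts went from between 9.33% and 10.7% to between 13.4% and 14.7%. The part of these shifts in the subunits' changes was not tested. For the subunits, changes are also given after rescaling, in which a single factor per library brings the bulk of the more abundant features to a common level. The plasma cell markers SDC1, TNFRSF17, IRF4, PRDM1, XBP1, CD38, SLAMF7 and MZB1 were all detected, with a summed TPM between 3002 and 4037 in single libraries. They did not move together, and by day 5, of the 8, 5 were called lower and 1 higher on the deposited scale, or 2 lower and 3 higher after rescaling. Over all features 69.8% were called lower and 7.73% higher on the deposited scale, and 26.9% and 27.5% after rescaling. Summed markers of monocytes, fibroblasts and erythroid cells stayed below 1.2 TPM in each library. The 4 T cell markers summed to between 2.75 and 3.32 TPM in untreated libraries, then to 5.06 to 7.17 TPM on day 2, 4.92 to 7.22 on day 3 and 3.51 to 4.75 on day 5. CD3E carried nearly all of this and was called higher at day 2 and day 3 on both scales, while CD3D was at 0 in every library and CD2 and CD3G did not exceed 0.16 TPM. The part of CD3E in the subunits' changes was not tested.

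In untreated cells, 9 of the 10 subunits were among the most abundant transcripts of the line. OST4, a very small membrane subunit, was highest at 763 ± 44.9 TPM (SD, n = 3), which ranked 180 among the 11939 tested features. RPN2 followed at 428 ± 13.4 TPM, DAD1 at 361 ± 16.8, STT3A at 347 ± 13.0, RPN1 at 315 ± 5.59, DDOST at 299 ± 7.0 and TMEM258 at 285 ± 23.3 (SD, n = 3 each). OSTC stood at 218 ± 7.14 TPM and STT3B at 205 ± 15. MAGT1 was far lower, between 38.1 and 42.5 TPM and at rank 2593. Neighbours in this order whose libraries overlapped were DAD1 and STT3A, DDOST and TMEM258, and OSTC and STT3B. The transcription factor MYC was at 86.7 ± 9.23 TPM and the proteasome assembly factor POMP at 76.1 ± 5.24 TPM, below all of the subunits except MAGT1.

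**Figure D1:**
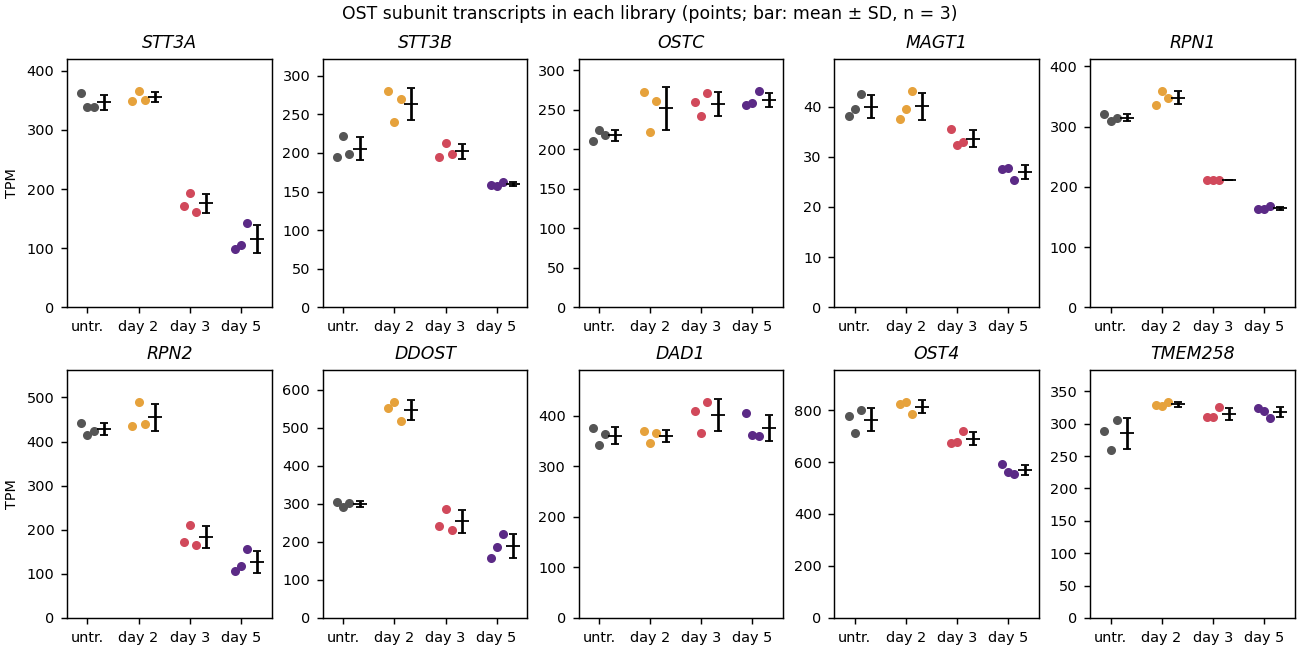
TPM of each of the 10 OST subunits (y axis, from 0) in each of the 12 libraries, grouped as untreated, day 2, day 3 and day 5 of NGI-1 (x axis), with the mean ± SD of 3 libraries beside the points. On this deposited scale STT3A and RPN2 dropped after day 2, DDOST peaked at day 2, and DAD1, TMEM258 and OSTC stayed near or above their untreated levels. After rescaling, STT3A was not called on any day and DDOST stayed above the untreated level at day 5.

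Windows around the gene starts are shown for 3 subunits with unlike courses: DDOST, which rose at day 2, STT3A, which fell later on the deposited scale, and OSTC, which did not fall. Each runs from 250 bases before to 50 after the start, in the direction of the gene, from RefSeq on GRCh38.p14. These starts differ from the outer gene ends given below, which come from GENCODE 29 and span all transcripts of a gene, so that the STT3A window lies inside the longer GENCODE span. Capitals mark CCAAT and CCACG on either strand, the outer parts of the endoplasmic reticulum stress element.
DDOST, chr1:20661320-20661619, minus strand: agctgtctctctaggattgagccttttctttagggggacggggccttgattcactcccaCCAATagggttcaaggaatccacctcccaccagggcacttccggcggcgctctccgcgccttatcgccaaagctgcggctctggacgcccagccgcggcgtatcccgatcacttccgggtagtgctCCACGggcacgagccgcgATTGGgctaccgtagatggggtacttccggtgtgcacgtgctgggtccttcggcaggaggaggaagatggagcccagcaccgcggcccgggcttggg
STT3A, chr11:125592602-125592901, plus strand: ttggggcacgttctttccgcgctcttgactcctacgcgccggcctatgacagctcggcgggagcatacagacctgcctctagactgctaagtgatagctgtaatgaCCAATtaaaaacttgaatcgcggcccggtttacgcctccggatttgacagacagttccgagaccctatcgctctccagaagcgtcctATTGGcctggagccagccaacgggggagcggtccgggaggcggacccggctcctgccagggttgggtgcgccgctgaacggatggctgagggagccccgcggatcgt
OSTC, chr4:108650349-108650648, plus strand: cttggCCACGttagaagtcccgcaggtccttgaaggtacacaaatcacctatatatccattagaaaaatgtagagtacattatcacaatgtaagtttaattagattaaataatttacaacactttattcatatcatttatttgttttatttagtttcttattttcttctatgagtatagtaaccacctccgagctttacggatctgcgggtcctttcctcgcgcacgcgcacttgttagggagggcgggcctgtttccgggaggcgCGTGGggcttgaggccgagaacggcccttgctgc

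Of the 10 subunits, 8 had such a window. STT3B and RPN1 did not match. CCAAT stood in the windows of DDOST, STT3A, DAD1 and MAGT1 and in 34.6% of all 35116 windows. CCACG stood in those of DDOST, OST4 and OSTC and in 38.1% of all windows. DDOST was the one matched member with both. The full element, CCAAT and CCACG with 9 bases between them, was in none of the 8 and in 0.0769% of all windows, searched on both strands. The cyclic AMP element TGACGTCA was in none of them and in 1.85% of all, and TGATGNAA, the amino acid response element, in none and in 3.62%. These are matches of letters and say nothing of binding.

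STT3A and STT3B, the catalytic subunits, parted ways under NGI-1. STT3A, on the plus strand of chromosome 11 (GRCh38, 125591712 to 125625215), measured 362, 339 and 339 TPM in the untreated libraries. It stood at 349, 365 and 351 TPM at day 2, at 172, 194 and 161 at day 3, and at 99.3, 105 and 142 at day 5. Day 2 overlapped the untreated libraries, whereas all libraries of day 3 and day 5 lay below them. At day 2 its log2 fold change of 0.04 had a standard error of 0.114 (adjusted p = 0.822). STT3A fell by 0.98 on the log2 scale at day 3 (standard error 0.114, adjusted p = 3.11e-06) and by 1.60 at day 5 (adjusted p = 1.54e-08). At day 5 this was 0.61 below the median change of all features. After rescaling, the changes of STT3A were 0.27, -0.11 and -0.38 on the 3 days (adjusted p = 0.00608, 0.151 and 2.22e-04), none of them past the fold threshold.

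STT3B, on chromosome 3 from 31532638 to 31637622 on the plus strand, measured 194, 222 and 199 TPM in the untreated libraries. It was at 280, 240 and 270 TPM at day 2, at 195, 213 and 198 at day 3, and at 158, 158 and 162 at day 5. All day 2 libraries lay above the untreated ones, day 3 overlapped them, and day 5 lay below. The log2 fold changes were 0.36 (adjusted p = 0.00252), -0.02 (adjusted p = 0.810) and -0.36 (adjusted p = 7.06e-04) on the 3 days, each within the fold threshold. After rescaling STT3B rose on every day, by 0.59, 0.84 and 0.86 (adjusted p = 3.11e-04, 5.46e-06 and 3.30e-06). Its direction at day 3 and day 5 therefore depends on the scale.

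A comparison within a library is free of that choice, since a factor common to the library drops out. In log2(TPM + 1), STT3A exceeded STT3B by 0.75 ± 0.14 in untreated cells and by 0.43 ± 0.15 at day 2 (SD, n = 3 each). Day 3 libraries averaged -0.20 ± 0.082 and day 5 libraries -0.48 ± 0.25 (SD, n = 3 each). In TPM, the ratio of STT3A to STT3B lay between 1.53 and 1.86 in untreated libraries and between 1.25 and 1.52 at day 2. It lay between 0.815 and 0.911 in day 3 libraries and between 0.629 and 0.873 in those of day 5. Thus STT3B became the more abundant catalytic transcript by day 3. STT3A made up 62.8% ± 2.33 of the summed TPM of STT3A and STT3B in untreated cells, while by day 5 its part was 41.7% ± 4.28 (SD, n = 3 each). All 9 treated libraries had a lower difference than all 3 untreated ones. The shift of -0.84 had p = 0.00909 in an exact permutation test, two-sided, that went through all 220 choices of 3 libraries. Adjusted over the 2 pairs compared, the exact p was 0.0182. The smallest p this design allows is 0.00455. For a single day, 3 against 3 libraries cannot go below 0.10, and no p-value is given.

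OSTC and MAGT1, the members specific to OST-A and OST-B, moved apart in the opposite sense. OSTC, which joins OST-A to the translocon, is on chromosome 4 from 108650584 to 108667820 on the plus strand. It measured 210, 225 and 219 TPM in the untreated libraries. The treated libraries were at 272, 222 and 261 TPM at day 2, at 259, 242 and 272 at day 3, and at 257, 259 and 273 at day 5. All of day 3 and day 5 lay above the untreated libraries, although the log2 fold changes of 0.20, 0.24 and 0.27 were within the fold threshold (adjusted p = 0.0602, 0.0163 and 0.00752). After rescaling the changes were 0.43 at day 2, not called, followed by rises of 1.10 at day 3 (adjusted p = 1.94e-06) and 1.49 at day 5 (adjusted p = 7.65e-08).

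MAGT1, a thioredoxin-like oxidoreductase of OST-B, is on chromosome X from 77826364 to 77895593 on the minus strand. Its libraries measured 38.1, 39.4 and 42.5 TPM untreated and 37.6, 39.6 and 43.02 TPM at day 2. Those of day 3 measured 35.5, 32.4 and 32.9 TPM, and those of day 5 27.6, 27.9 and 25.3 TPM. Day 2 overlapped the untreated level, and day 3 and day 5 lay below it. MAGT1 fell by 0.55 on the log2 scale at day 5 (standard error 0.0895, adjusted p = 5.04e-05), while after rescaling it rose by 0.64 (adjusted p = 3.47e-04). At day 3 its change was -0.24 (adjusted p = 0.0222), or 0.60 after rescaling.

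Within a library, OSTC exceeded MAGT1 by 2.42 ± 0.074 in log2(TPM + 1) in untreated cells (SD, n = 3). It did so by 2.62 ± 0.19 at day 2, by 2.90 ± 0.092 in the day 3 libraries and by 3.24 ± 0.12 in those of day 5 (SD, n = 3 each). The TPM ratio of OSTC to MAGT1 went from between 5.14 and 5.70 to between 9.29 and 10.8 at day 5. Of the 9 treated libraries, 8 lay above the highest untreated one. The same exact permutation test gave p = 0.0227 for the shift of 0.50, also 0.0227 after adjustment over the 2 pairs. The test did not pass 0.05 when untreated replicate 1, 2 or 3 was left out (p = 0.0727, 0.0545 and 0.0727 from the exact test), at shifts of 0.51, 0.54 and 0.46.

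**Figure D2:**
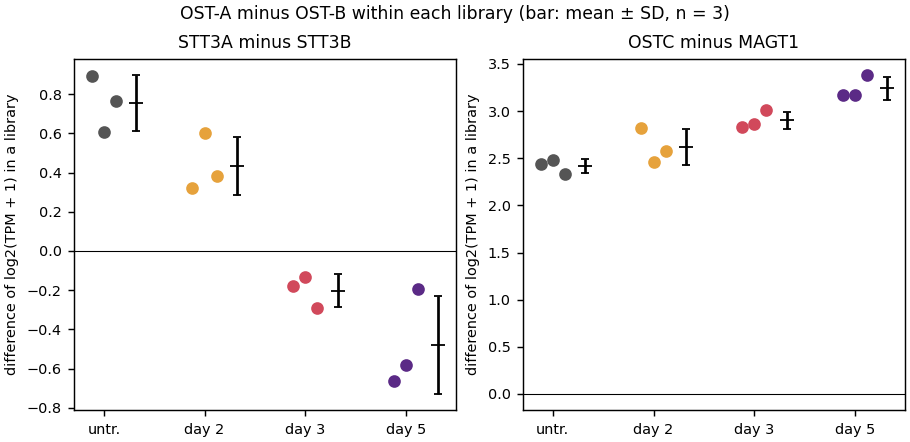
Difference of log2(TPM + 1) within each library (y axis) between STT3A and STT3B (left) and between OSTC and MAGT1 (right), for untreated cells and days 2, 3 and 5 of NGI-1 (x axis), with the mean ± SD of 3 libraries. The catalytic pair crossed 0 between day 2 and day 3, from 0.75 in untreated cells to -0.48 at day 5, while OSTC minus MAGT1 went from 2.42 to 3.24.

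The remaining form-specific subunits, KRTCAP2 and TUSC3, were not among the chosen 10. KRTCAP2 of OST-A followed STT3A rather than OSTC in its direction. Its libraries measured 528, 441 and 483 TPM untreated and 453, 483 and 438 TPM at day 2. By day 3 they measured 202, 237 and 195 TPM, and by day 5 133, 156 and 208 TPM. KRTCAP2 fell by 1.19 at day 3 and by 1.56 at day 5 on the log2 scale (adjusted p = 2.25e-06 and 9.66e-08). After rescaling it stood at -0.33 and -0.34, within the fold threshold (adjusted p = 0.00482 and 0.00346). TUSC3 of OST-B was barely expressed. It reached 0.231 TPM at most in untreated libraries, 0.796 at day 2, 1.51 at day 3 and 1.45 at day 5, and it entered the test only through its treated libraries. No fold change is given for it. Within OST-A, then, STT3A and KRTCAP2 fell on the deposited scale and OSTC did not.

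Among the shared subunits DDOST responded first. DDOST, a shared subunit needed for the stability of the complex, is on chromosome 1 from 20651767 to 20661544 on the minus strand. Its untreated libraries measured 305, 291 and 302 TPM, and those of day 2 measured 553, 567 and 517. The groups did not overlap, and DDOST rose by 0.86 at day 2 (standard error 0.111, adjusted p = 3.49e-05), or by 1.10 after rescaling (adjusted p = 8.75e-08). It exceeded 96.8% of tested features in its day 2 change. At day 3 the libraries measured 242, 287 and 232 TPM and at day 5 157, 187 and 221. These lay below the untreated libraries. The change was -0.24 at day 3 (adjusted p = 0.0578), and at day 5 DDOST fell by 0.68 (adjusted p = 5.48e-05). After rescaling DDOST was still higher than in untreated cells, by 0.62 at day 3 (adjusted p = 3.46e-06) and by 0.54 at day 5 (adjusted p = 8.60e-06). The rise at day 2 was called on both scales, and the later direction was not shared between them.

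RPN1 and RPN2, the ribophorins that form the large membrane part of the complex, fell to different extents. RPN2 is on chromosome 20 from 37178410 to 37241623 on the plus strand. It measured 442, 416 and 425 TPM untreated and 435, 489 and 441 TPM at day 2. The day 3 libraries had 172, 211 and 166 TPM, the day 5 libraries 108, 118 and 156 TPM. Day 2 overlapped the untreated libraries, and the later days lay far below. RPN2 fell by 1.23 at day 3 and by 1.76 at day 5 (standard error 0.124, adjusted p = 8.46e-07 and 1.35e-08), the largest falls of the 10. After rescaling its day 3 change was -0.36, within the fold threshold. At day 5 it was the one member still called lower after rescaling, having fallen by 0.54 (adjusted p = 2.39e-05).

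RPN1, on chromosome 3 from 128619970 to 128681075 on the minus strand, measured 321, 310 and 314 TPM untreated and 337, 358 and 348 at day 2. It was at 212, 212 and 211 TPM at day 3 and at 163, 163 and 168 at day 5, with little spread between libraries. Day 2 lay above and both later days below the untreated libraries. RPN1 fell by 0.57 and 0.93 on these days (standard error 0.0594, adjusted p = 1.14e-06 and 5.39e-09), which at day 5 was 0.06 above the median of all features. After rescaling RPN1 stood at 0.30 and 0.29, within the fold threshold (adjusted p = 0.00807 and 0.00787).

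DAD1, OST4 and TMEM258, the small shared subunits, were not called on any day on the deposited scale. DAD1, first known as a defender against cell death, is on chromosome 14 from 22564905 to 22589269 on the minus strand. It measured 377, 343 and 364 TPM untreated and 370, 347 and 366 TPM at day 2, then 411, 366 and 428 TPM at day 3 and finally 406, 362 and 361 TPM. The groups overlapped on each day, and the largest change was 0.15 at day 3 (adjusted p = 0.0890). TMEM258, on chromosome 11 from 61768501 to 61792802 on the minus strand, measured 289, 260 and 306 TPM untreated. It was at 329, 327 and 334 TPM at day 2, at 310, 311 and 326 at day 3, and at 325, 320 and 309 at day 5. All treated libraries lay above the untreated ones, with changes of 0.21, 0.15 and 0.16 that were within the fold threshold (adjusted p = 0.0221, 0.0626 and 0.0432). OST4, on chromosome 2 from 27070472 to 27071773 on the minus strand, measured 777, 713 and 799 TPM untreated and 824, 831 and 783 TPM at day 2. It had 673, 678 and 721 TPM on day 3 and 592, 560 and 554 TPM on day 5. Only its day 5 libraries lay wholly below the untreated ones, at -0.42 (adjusted p = 2.71e-05). After rescaling these 3 genes were called higher at day 3 and day 5. At day 2 their rescaled changes were 0.23 for DAD1, 0.45 for TMEM258 and 0.33 for OST4, not called, and at day 3 they were 1.01, 1.01 and 0.72. At day 5 DAD1 then rose by 1.28, TMEM258 by 1.38 and OST4 by 0.80 (adjusted p = 1.46e-06, 1.39e-07 and 2.47e-05).

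**Figure D3:**
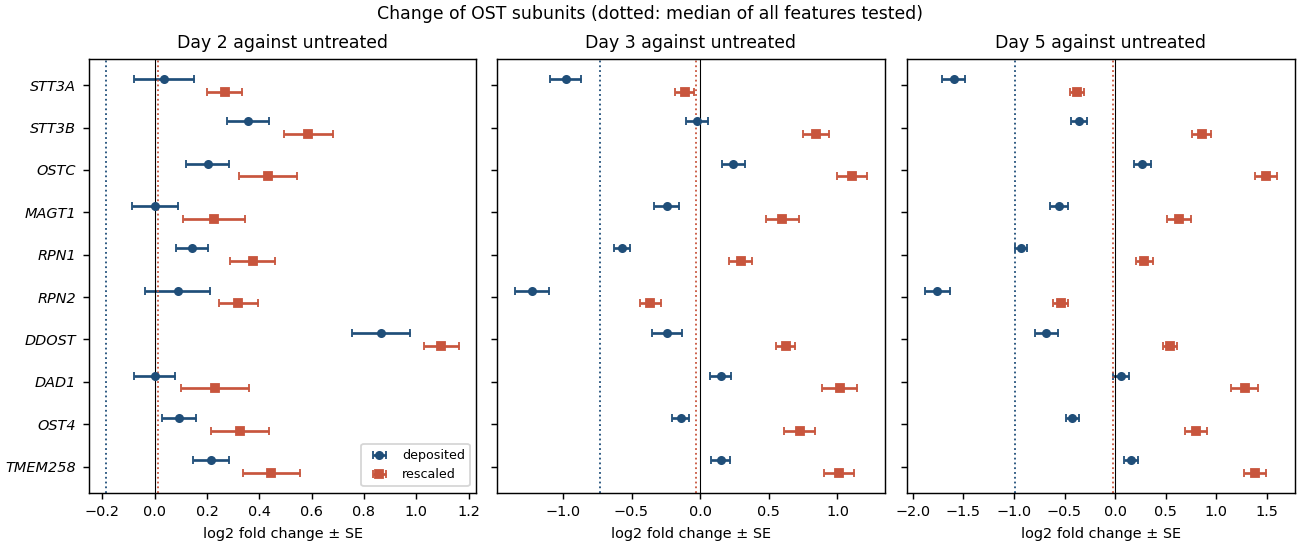
Log2 fold change ± standard error (x axis) of each OST subunit (y axis) against untreated cells at days 2, 3 and 5 of NGI-1, on the deposited scale (circles) and after rescaling (squares), with dotted lines at the median of all 11939 tested features on each scale. At day 5 the subunits ran from -1.76 in RPN2 to 0.27 in OSTC on the deposited scale and from -0.54 to 1.49 after rescaling, in the same order.

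By count, 1 of the 10 subunits was called higher and none lower at day 2, where 8.04% of all features were called higher and 23.2% lower. At day 3, STT3A, RPN1 and RPN2 were called lower and none higher, beside 61.5% and 7.59% of all features. At day 5, STT3A, RPN1, RPN2, DDOST and MAGT1 were called lower and none higher, beside 69.8% and 7.73%. At an unadjusted p under 0.05 in limma, 0 subunits were lower and 5 higher at day 2. At that level 6 were lower and 1 higher at day 3, and 7 were lower and 2 higher at day 5. The share of all features at an unadjusted p was not computed. The median change of the 10 was 0.12, -0.19 and -0.49, above the -0.18, -0.73 and -0.99 of all features. After rescaling, 2 were called higher at day 2 and 7 at both day 3 and day 5, beside 12.9%, 23.9% and 27.5% of all features. STT3A, RPN1 and RPN2 were the members not among the 7 at either day. On that scale RPN2 alone was called lower, at day 5, where 26.9% of all features were.

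The subunits spread apart as treatment went on. The SD of the log2 fold change over the 10 was 0.26 at day 2, 0.49 at day 3 and 0.69 at day 5, and this does not depend on the rescaling. The widening was not particular to OST among the pathway lists taken up below. On the deposited scale the SD was 0.38, 0.71 and 0.83 over 24 genes of sugar chain assembly. It was 0.20, 0.78 and 0.95 over 11 translocon and TRAP genes, and 0.36, 0.29 and 0.32 over 7 glucose trimming genes. From day 2 to day 3, RPN2 fell by 1.31, DDOST by 1.11, STT3A by 1.01 and RPN1 by 0.71 (adjusted p = 2.83e-06, 4.52e-06, 1.02e-05 and 1.05e-06), 4 of 10 beside 55.5% of all features. None was called higher, where 3.22% of all features were. At an unadjusted p under 0.05 in limma, 7 of the 10 were lower and 0 higher in that step. After rescaling RPN2 alone was called lower in that step, at -0.68, and DAD1, TMEM258 and OSTC were called higher, at 0.78, 0.57 and 0.67, beside 13.6% and 14.3% of all features. From day 3 to day 5, STT3A fell by a further 0.62 and RPN2 by 0.53 (adjusted p = 0.00221 and 0.00768), beside 13.1% of all features lower and 0.670% higher. None was called after rescaling, when 2.03% of features were lower and 4.43% higher. In that step after rescaling, 2 of the 10 were lower at an unadjusted p under 0.05 in limma (STT3A and RPN2). At the same level 2 were higher (OSTC and TMEM258). The share of all features at an unadjusted p was not computed, so these counts cannot be set beside the shares called. The RPN2 call was lost without replicate 2 of day 3 or replicate 1 or 2 of day 5, at -0.43, -0.42 and -0.49, and DDOST was called as well without replicate 3 of day 5, at -0.56.

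As parts of a sum, the 10 transcripts changed in proportion. Their summed TPM was 3261 ± 88.3 in untreated cells, 3762 ± 41.9 at day 2, then 2725 ± 37.3 and 2308 ± 57.2 on days 3 and 5 (SD, n = 3 each). RPN2 made up 13.1% of it in untreated cells and 5.49% at day 5, and STT3A 10.6% and 4.99%. OSTC went from 6.69% to 11.4%, and DAD1 from 11.1% to 16.3%. DDOST peaked at 14.5% at day 2, from 9.18% in untreated cells. DAD1, OST4, TMEM258 and OSTC together held 49.9% ± 1.11 of the sum before treatment and 66.2% ± 2.89 by day 5 (SD, n = 3 each), a group named after its values were seen.

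**Figure D4:**
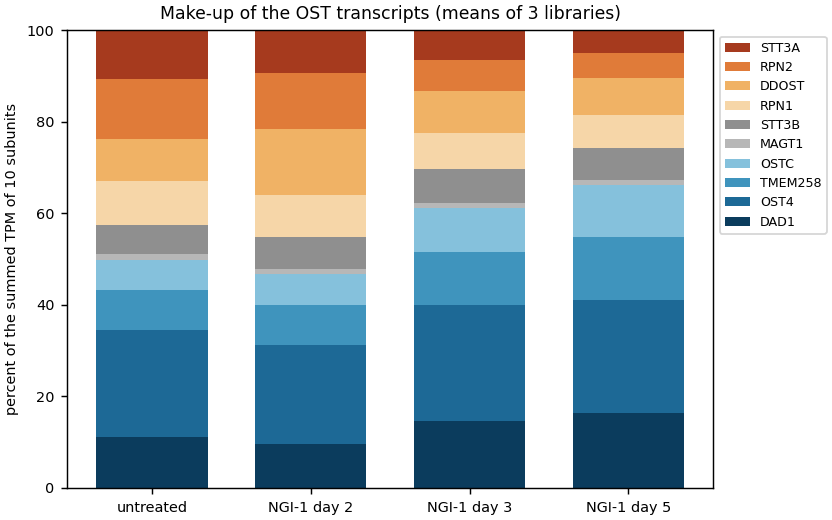
Share of each subunit in the summed TPM of the 10 OST subunits (y axis, percent) in untreated cells and at days 2, 3 and 5 of NGI-1 (x axis), as means of 3 libraries. The blue segments (DAD1, OST4, TMEM258 and OSTC) grew from 49.9% to 66.2%, and the segments of RPN2 and STT3A shrank to 5.49% and 4.99%.

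Transcript length differed between the subunits. The principal transcripts of OST4, TMEM258 and DAD1 have 561, 575 and 731 nucleotides in GENCODE 29, and that of OSTC has 1077. Those of DDOST, RPN1 and RPN2 have 2126, 2314 and 2515 nucleotides, and those of MAGT1, STT3B and STT3A 4047, 4248 and 4558. The principal transcript of KRTCAP2 has 552 nucleotides. Across the tested features with a known length, the median change at day 5 was -0.55 for 560 features under 1000 nucleotides, -0.91 for 2034 from 1000 to 2000, -1.11 for 4053 from 2000 to 4000 and -1.17 for 3778 longer ones. The part of length in the subunits' changes was not tested. Libraries differed within groups too. Replicate 2 of day 3 and replicate 3 of day 5 had the lowest ribosomal protein share of their group, at 40.2% and 47.5%, and the highest STT3A, RPN2, DDOST and KRTCAP2.

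Other genes of the pathway were counted by lists. Of 24 genes that assemble the dolichol-linked sugar chain which OST transfers, 2 were called higher on each of the 3 days. That is close to the 8.04%, 7.59% and 7.73% of all features called higher. Genes of the list called lower numbered 1 on day 2, 18 on day 3 and 20 on day 5, beside 23.2%, 61.5% and 69.8% of all features. The median of the list at day 5 was -1.11. After rescaling the day 5 counts were 6 lower and 5 higher, beside 26.9% and 27.5% of all features. ALG9, a mannosyltransferase, fell most at day 5, by 2.35, from between 21.6 and 25.2 TPM to between 2.78 and 5.31. ALG14, a subunit of the enzyme that adds the second sugar, rose most, by 0.96 on the log2 scale, from between 1.09 and 3.36 TPM to between 3.94 and 5.45.

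Of 11 genes of the translocon and the translocon-associated protein complex TRAP, next to which OST-A works, none was called at day 2. At an unadjusted p under 0.05 in limma, 6 were higher and 0 lower that day. By the stricter call, 8.04% of all features were higher and 23.2% lower at day 2. The share of all features at an unadjusted p was not computed, so the 6 cannot be set beside these shares. On either later day 1 of the 11 was called higher, beside 7.59% and 7.73% of all features. Genes of this list called lower numbered 5 on day 3 and 6 on day 5, beside the same 61.5% and 69.8% of all features. After rescaling 5 of the list were higher at day 2, beside 12.9% of all features. At day 5, 6 were higher and 2 lower, beside 27.5% and 26.9%. SSR1, a TRAP subunit, fell by 2.19 at day 5, and SEC61G, the small translocon subunit, rose by 0.71 to between 2284 and 2569 TPM. All 7 genes of glucose trimming and the calnexin cycle, which act on the sugar chain after its transfer, were called lower at day 3 and day 5, where 61.5% and 69.8% of all features were, with a median of -1.75 at day 5. After rescaling 3 were lower at day 3 and 4 at day 5, beside 24.2% and 26.9% of all features. GANAB, the catalytic subunit of glucosidase II, fell most, by 2.08. After rescaling these 5 named genes stood at -1.27 for ALG9, 1.87 for ALG14, -0.97 for SSR1, 1.93 for SEC61G and -0.87 for GANAB, each still called. They were picked as the largest called day 5 changes of their lists, so their keeping a call is no separate support. On both scales the median of this last list lay below that of all features at day 3 and day 5, and the median of the 10 OST subunits lay above it.

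Profiles were compared with the 5433 features that averaged 10 TPM or more. Those whose rescaled and centred profile over the 12 libraries lay nearest to STT3A were EIF4B, a translation initiation factor, GLDC, of glycine breakdown, and TCTN3, a ciliary protein, with root-mean-square differences of 0.074, 0.077 and 0.082 log2 units. Nearest to STT3B were ASAH1, the lysosomal acid ceramidase, GUCY1A1, a guanylate cyclase subunit, and MFSD1, a lysosomal transporter, at 0.078, 0.085 and 0.086. Among the 10 subunits themselves, STT3A lay nearest to RPN2, at 0.13, and STT3B nearest to OST4, at 0.14. OSTC and RPN2 lay farthest apart, at 0.89.

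Some features share their locus with a subunit. CHEK1, a checkpoint kinase gene, overlaps STT3A on the same strand and ranged from 0.353 to 76.1 TPM over the libraries. FEN1, a replication nuclease gene, overlaps TMEM258 on the other strand and ranged from 7.05 to 139 TPM. How the counting treated strand is not given in the sources used here, so reads of such neighbours may have been split between them. The 7 features named as pseudogenes of OSTC and KRTCAP2 did not exceed 0.201 TPM in any library.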

How the data were processed

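Total RNA of MM1S cells was sequenced as paired ends in 12 libraries, 3 per group. The authors deposited log2 values of TPM plus 1 per gene symbol. The submitters' processing notes name FastQC, Trimmomatic, STAR, Salmon and hg38. The annotation is not given in the sources used here. The values sum to the same total TPM in every library and keep no read counts, so counting error is unknown.

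The 11939 of 59276 features that reached 1 TPM in 3 or more libraries were fitted in limma 3.58.1 (R 4.3.3), with 1 mean per group, a mean-variance trend, and Benjamini-Hochberg adjustment within each contrast. All 4 groups entered one fit, and the 3 treated groups share the untreated libraries. A call needed an adjusted p below 0.05 together with a change beyond 0.5 log2 units. The fit was tested on simulated data. For rescaling, a single factor per library brought the median log2 deviation from the average library to 0, taken over the 5433 features that averaged 10 TPM or more. Pairs of subunits were compared by an exact permutation test. Gene positions and lengths came from GENCODE 29 on GRCh38, with a length for 87.3% of tested features. Figures were drawn with matplotlib 3.10.9.

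The subunits and the lists were chosen with earlier results of these data known. The text names the 10 members, KRTCAP2, TUSC3, MYC, POMP, the largest called rise and fall at day 5 in each pathway list, and the 3 nearest profiles to STT3A and STT3B. Overlapping genes were named after their values were seen. Alternatives were the rescaling, leaving out ribosomal protein and mitochondrially encoded transcripts, a pseudocount of 0.1, no filter, a TPM minimum of 5, no trend, pairwise fits, a fold threshold of 1, TPM ratios for the pairs, and each library left out in turn.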

Additional observations from a re-analysis of the deposited data

Results flagged for a closer look

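The response of 4 subunits differed between day 2 and day 3 by the test of that difference itself, in a step where 55.5% of all features were called lower. On the log2 scale the change from day 2 to day 3 was -1.01 for STT3A, -0.71 for RPN1, -1.31 for RPN2 and -1.11 for DDOST, with all day 3 libraries below all day 2 libraries. After rescaling the differences were -0.38, -0.08, -0.68 and -0.47, and RPN2 alone was still past both thresholds.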

How the results depend on the processing

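The direction of many changes depended on how the libraries were scaled. After rescaling, the change at day 3 was 0.84 for STT3B, 0.30 for RPN1, 0.62 for DDOST, 0.72 for OST4 and 0.60 for MAGT1. At day 5 it was 0.86 for STT3B, 0.29 for RPN1, 0.54 for DDOST, 0.80 for OST4 and 0.64 for MAGT1. From day 2 to day 3 it was 0.25 for STT3B, 0.40 for OST4, 0.57 for TMEM258 and 0.37 for MAGT1, and from day 3 to day 5 it was 0.017 for STT3B, 0.078 for OST4 and 0.038 for MAGT1. All of these were below 0 as deposited. Leaving out ribosomal protein and mitochondrially encoded transcripts also turned the sign, to 0.45 for STT3B, 0.23 for DDOST, 0.33 for OST4 and 0.22 for MAGT1 at day 3, to 0.35, 0.036, 0.29 and 0.14 for the same genes at day 5, and to 0.088 for OST4, 0.26 for TMEM258 and 0.070 for MAGT1 from day 2 to day 3.

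Counts moved with the same choices. After rescaling, the subunits called higher were 2 at day 2, 7 at day 3, 7 at day 5 and 3 from day 2 to day 3, and those called lower were 0 at day 3, 1 at day 5, 1 from day 2 to day 3 and 0 from day 3 to day 5. The dolichol list then had 0, 5 and 6 genes lower on the 3 days, with 4 higher at day 3 and 5 at day 5. The translocon list had 5, 6 and 6 genes higher on the 3 days, with 2 lower at day 3 and 2 at day 5. Glucose trimming had 0 lower at day 2, 3 at day 3 and 4 at day 5. Over all features, 11.4%, 24.2% and 26.9% were called lower after rescaling on the 3 days, and 12.9%, 23.9% and 27.5% higher. Without ribosomal protein and mitochondrially encoded transcripts, 2 subunits were higher at day 2, 3 were higher at day 3, 2 were lower and 3 higher at day 5, and 0 were lower from day 3 to day 5. The dolichol list had 0, 8 and 12 genes lower on the 3 days, with 4 higher at day 3 and 4 at day 5. The translocon list had 2, 3 and 4 genes higher on the 3 days, with 3 lower at day 3 and 3 at day 5, and glucose trimming had 0 lower at day 2. The share of all features called in this setting was not computed, so these counts cannot be set beside it.

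A fold threshold of 1, stricter by construction, left 0 subunits higher at day 2, 1 lower at day 3, 2 lower at day 5 and 0 lower from day 3 to day 5. In the dolichol list it left 0, 7 and 13 genes lower on the 3 days and 1, 1 and 0 higher. In the translocon list it left 3 lower and 0 higher at day 3 and 0 higher at day 5, and in glucose trimming 0 in either direction at day 2. Nor was the share of all features computed at this threshold. A pseudocount of 0.1 gave 2 dolichol genes lower at day 2, and no filter gave 0 glucose trimming genes lower at day 2. The cause of these last changes was not tested. No trend, pairwise fits and a TPM minimum of 5 moved no count by more than 1.5 times.

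With each library left out in turn, subunits called lower from day 3 to day 5 numbered 1 to 3. Dolichol genes lower at day 2 numbered 1 to 3. Glucose trimming genes lower at day 2 numbered 0 to 1, and translocon genes higher at day 3 numbered 0 to 1. The share of all features called with a library left out was not computed. The shift of OSTC minus MAGT1 ran from 0.45 to 0.56, and that of STT3A minus STT3B from -0.92 to -0.76. For STT3A minus STT3B the exact permutation p stayed below 0.05 each time, before adjustment over the 2 pairs. It was highest, at 0.0364, without untreated replicate 1 or 3. No p adjusted over the 2 pairs is given with a library left out. No paired analysis was possible because the labels number no replicates, and the numbers used here only name libraries in the order of deposit. The files keep no read counts, so depth sets no limit that can be computed here.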
